A study of Pinus pinaster with 36 samples.

Results

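The root response of maritime pine (Pinus pinaster) to nitrogen form was examined in air enriched to 720 ppm CO2. The comparison used 6 RNA-seq libraries, 3 from roots of seedlings watered with ammonium and 3 from roots of seedlings watered with nitrate, out of 36 libraries from needles, stem and roots. Transcripts were described if their mean level was at least 0.5 CPM (counts scaled to a library total of 1000000) over the 12 needle or over the 12 stem libraries and at least 1 CPM over the 12 root libraries. The first condition keeps to transcripts that were also measured in the shoot. Of 224081 transcript identifiers in the deposited table, 61757 met the rule. At its edges, the lowest root mean inside was 1.00005 CPM and the highest outside 0.99989 CPM, and the corresponding shoot means were 0.500125 and 0.499997 CPM.

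All seedlings were 2 months old and of the Segura-Alcaraz provenance. For 1 month they were watered weekly with 40 mL of solution at 8 mM, which held ammonium chloride for some and potassium nitrate for the others, in air of 400 or 720 ppm CO2. A replicate was a pool of 12 seedlings. Ammonium came with chloride and nitrate with potassium, so nitrogen form and these ions cannot be told apart here. Whether the ammonium and nitrate groups at 720 ppm shared a growth chamber is not given in the labels.

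Roots take up ammonium and nitrate through separate families of transporters. Nitrate is reduced in the plant by nitrate reductase and nitrite reductase to ammonium, which glutamine synthetase and glutamate synthase then build into amino acids. Nitrate also acts as a signal that induces the genes of its own uptake and reduction, and many conifers take up ammonium more readily than nitrate. The deposited table pairs no identifier with a gene name or sequence, so none of the transcripts below could be tied to these pathways, and the labelled organ could not be checked against marker genes.

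The 6 libraries held 77656953 to 120587917 counts, and their number limits the precision of each level. The series design calls the replicates biological. Replicate 1 of the ammonium group stood apart. Over the described transcripts its log2 CPM values correlated with those of ammonium replicates 2 and 3 at r = 0.959 and 0.939, while replicates 2 and 3 correlated at 0.979 and the 3 nitrate libraries at 0.973 to 0.982. In that library 64.4% of the counts above 20 were even numbers, against 53.0 to 54.2% in the other 5 libraries, where independent fragments would give about as many odd as even values. The counts of calls and of differences between CO2 levels are therefore also given without it, but not every result below is. The described transcripts held 94.7 to 94.8% of the counts with ammonium and 92.8 to 93.9% with nitrate. The remainder, from transcripts outside the rule, was 5.18 to 5.32% with ammonium and 6.14 to 7.21% with nitrate. Its part in the results below was not tested. With the libraries scaled on the described transcripts alone, 1906 transcripts were called higher and 2514 lower, where the scaling used below gave 1751 and 2501.

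With ammonium, 1751 of the 61757 described transcripts were higher and 2501 were lower than with nitrate (adjusted p under 0.05 by the quasi-likelihood test of edgeR, with Benjamini-Hochberg adjustment over all 156123 root transcripts tested). These are 2.84 and 4.05% of the described transcripts. Over all root transcripts tested, 2.09% were called higher and 4.09% lower, 6.18% in all, so the share lower was near the background and the share higher above it. Most changes were modest. The median risen transcript was 1.67-fold higher with ammonium, and the median fallen transcript 1.71-fold lower. More than 2-fold changes were found for 451 risen and 829 fallen transcripts, more than 4-fold for 48 and 165, and more than 8-fold for 12 and 80. The longer tail on the fallen side is visible in the plot of fold change against level.

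**Figure D1:**
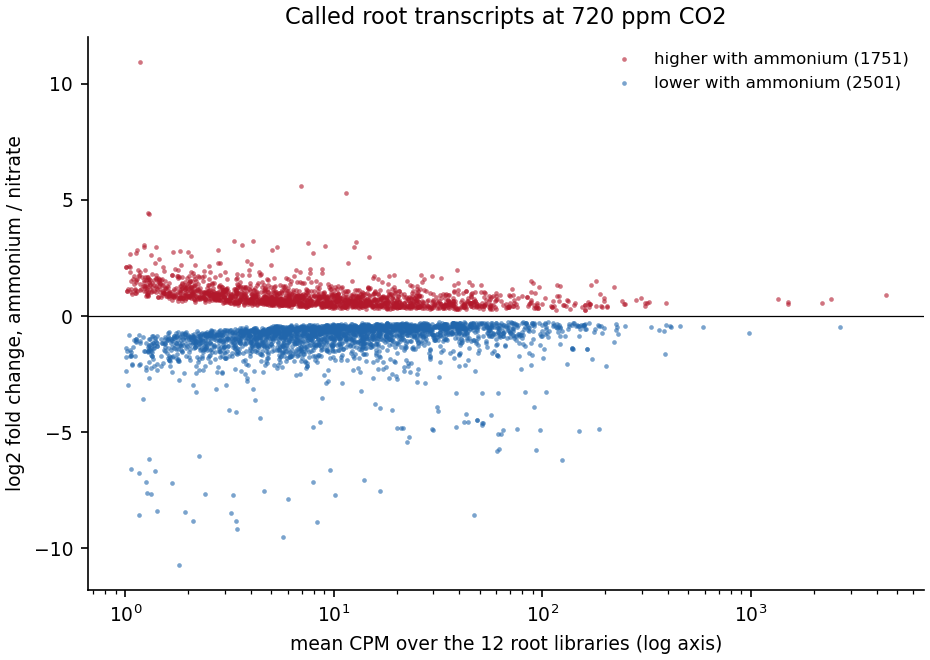
Each point is a described root transcript called at 720 ppm CO2, with its mean CPM over the 12 root libraries on a log axis and its log2 fold change of ammonium over nitrate on the vertical axis. Red points are higher and blue points lower with ammonium. The 12 rises of over 8-fold are few beside the 80 falls, and at the highest levels the changes are small in both directions.

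The 3 ammonium libraries lay wholly above or wholly below the 3 nitrate libraries for 1749 of the 1751 risen and 2484 of the 2501 fallen transcripts. Such separation was common among all root transcripts tested, at 12.0% above and 12.7% below. The risen transcripts together held 5.20 to 5.49% of the counts of the ammonium libraries and 3.20 to 3.35% of the nitrate libraries, and the fallen ones 4.42 to 4.56 and 7.45 to 7.56%. These sums describe lists chosen on the same libraries. Without ammonium replicate 1 the counts were 1923 higher and 1963 lower, and 2934 of the 4252 calls were made again in the same direction. The count of 4252 was 2782 without ammonium replicate 2, and 2633, 2420 and 2796 without nitrate replicates 1, 2 and 3. In a fit of all 36 libraries, which shares the spread with needles and stem, it was 1138.

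The transcript with the largest rise among those of at least 5 CPM was PpCO2_22062. It stood at 20.3, 15.9 and 18.5 CPM in ammonium replicates 1, 2 and 3, and at 0.391, 0.323 and 0.373 CPM in the nitrate replicates. The groups were far apart, and the fitted log2 ratio was 5.60 (SE 0.371, edgeR adjusted p = 4.66e-06). At 400 ppm its mean was 9.09 ± 3.37 CPM under ammonium and 0.237 ± 0.147 CPM under nitrate (SD, n = 3), also a called rise. In needles at 720 ppm it was more abundant in both groups, 128.1 ± 14.1 CPM under ammonium and 64.8 ± 11.8 CPM under nitrate (edgeR adjusted p = 1.00). The root effect exceeded that of needles by 4.57 on the log2 scale (SE 0.808, edgeR adjusted p = 0.0120 over 186020 transcripts tested). In stem at 720 ppm its log2 ratio was 2.75 (SE 0.617, edgeR adjusted p = 0.0897). The root effect minus the stem effect was 2.81 and did not pass (SE 0.876, edgeR adjusted p = 0.597).

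PpCO2_46864 was the most abundant transcript that rose at least 2-fold. Its level was 331.8, 252.1 and 242.1 CPM in the ammonium libraries and 114.5, 94.4 and 122.2 CPM in the nitrate libraries. The lowest ammonium library was thus well above the highest nitrate library, and the log2 ratio was 1.27 (SE 0.142, edgeR adjusted p = 0.000125). The same transcript was called higher with ammonium at 400 ppm, at a log2 ratio of 0.94 (SE 0.141, edgeR adjusted p = 0.00138).

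Of the transcripts that fell, PpCO2_28807 showed the largest fold change by the same rule. It was at 11, 10.5 and 11.4 CPM in the nitrate libraries, had 0 counts in ammonium replicates 1 and 3, and had 4 counts in ammonium replicate 2. Its fitted log2 ratio of -9.49 (SE 0.592, edgeR adjusted p = 3.40e-06) rests on those 4 counts, and without ammonium replicate 2 the remaining ammonium libraries were at 0, where a fitted ratio is no bound. In stem at 720 ppm it fell as well, from 9.63 ± 1.37 CPM under nitrate to 0.159 ± 0.0745 CPM under ammonium (SD, n = 3; edgeR adjusted p = 0.00163). In needles, where ammonium replicate 3 was at 0, the values were 3.52 ± 0.294 and 0.277 ± 0.268 CPM and the difference did not pass (edgeR adjusted p = 0.134).

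PpCO2_167522 was the most abundant transcript that fell at least 2-fold. It was at 159.7, 220.0 and 227.7 CPM under ammonium and at 531.8, 561.3 and 762.8 CPM under nitrate, groups that did not overlap. Its log2 ratio was -1.65 (SE 0.337, edgeR adjusted p = 0.0184). The call was lost without any of ammonium replicates 1, 2 and 3 (adjusted p = 0.0848, 0.0662 and 0.0588) and without nitrate replicates 2 and 3 (0.0568 and 0.0789), and its adjusted p over all alternatives reached 0.0848. In needles at 720 ppm the order of the groups was the opposite, 214.1 ± 80.9 CPM under ammonium and 75.7 ± 14.4 CPM under nitrate (SD, n = 3), a difference that did not pass (edgeR adjusted p = 0.438). The root effect minus the needle effect was -3.19 on the log2 scale (SE 0.568, edgeR adjusted p = 0.0130). In stem the log2 ratio was -0.63 (SE 0.393, edgeR adjusted p = 0.855). The root effect minus the stem effect, -1.04 (SE 0.555), did not pass.

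**Figure D2:**
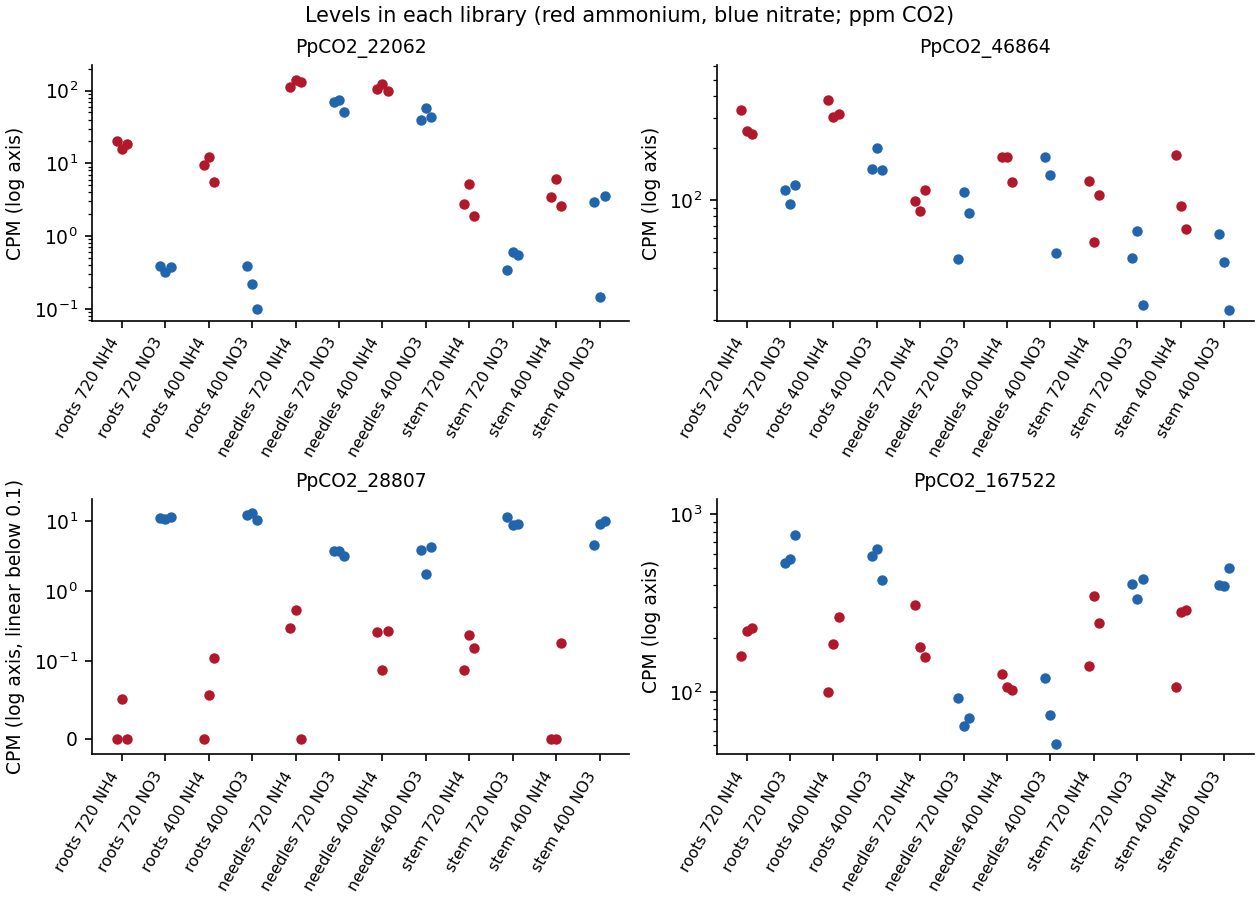
CPM of the 4 named transcripts in each library of every group, with 3 points per group, red for ammonium and blue for nitrate, on log axes (for PpCO2_28807 linear below 0.1, so that 0 can be shown). In roots at 720 ppm the ammonium and nitrate libraries do not overlap for any of the 4, and the needle levels of PpCO2_22062 exceed its root levels.

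The most abundant transcripts among those called mostly moved less than 2-fold. The 10 most abundant risen transcripts had means of 272.8 to 3904 CPM over the 6 libraries and log2 fold changes of 0.42 to 0.90. The 10 most abundant fallen ones, at 372.7 to 2837 CPM, had falls of 0.41 to 1.65 on the log2 scale, the last being PpCO2_167522. The highest level among the risen was 5132 CPM with ammonium against 2675 CPM with nitrate, and among the fallen 2437 CPM against 3237 CPM. At 400 ppm all 10 of the risen and 9 of the 10 fallen differed in the same direction, and 7 and 5 of them were called there.

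The share of transcripts called rose with root level. It was 4.47% of the 29229 transcripts at 1 to 5 CPM, 8.31% of the 21825 at 5 to 20 CPM, 10.4% of the 9515 at 20 to 100 CPM and 11.9% of the 1188 at 100 CPM or more, against 6.18% of all root transcripts tested. The fold changes ran the other way. The median log2 fold change of risen transcripts was 0.97 in the lowest class and 0.55 in the highest, and that of fallen transcripts -1.05 and -0.51. Smaller changes can pass the test where counts are higher, and the part of counting precision in these shares was not tested. Without nitrate replicate 2 the shares were 2.33, 4.88, 6.2 and 7.07%, and they rose with level there too.

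Transcripts that leaned to the root were called far more often than the others, and mostly lower with ammonium. Of 1826 transcripts over 4-fold higher in roots than in the higher of needles and stem, 100 were higher and 458 lower with ammonium, 30.6% in all. Of 57429 within 4-fold, 1517 were higher and 1994 lower, 6.11%. Of 2502 over 4-fold lower in roots, 134 were higher and 49 lower, 7.31%. The classes differed in root level, with medians of 10.5, 5.50 and 2.80 CPM in that order. The part of level in these shares was not tested. Left out by the rule were 5700 transcripts of at least 1 CPM in roots but under 0.5 CPM in needles and in stem. Of these 252 were higher and 1307 lower, 27.4%. Whether they are all of the pine was not tested, and they too can enter through the nitrogen group where they are high. At 400 ppm the root-leaning class had 131 higher and 504 lower, 34.8%. Over all alternatives the share called at 720 ppm was 22.7 to 37.8% for root-leaning transcripts. It was 3.33 to 9.64% for those within 4-fold and 3.64 to 11.2% for those lower in roots, the lowest values being those without nitrate replicate 2.

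**Figure D3:**
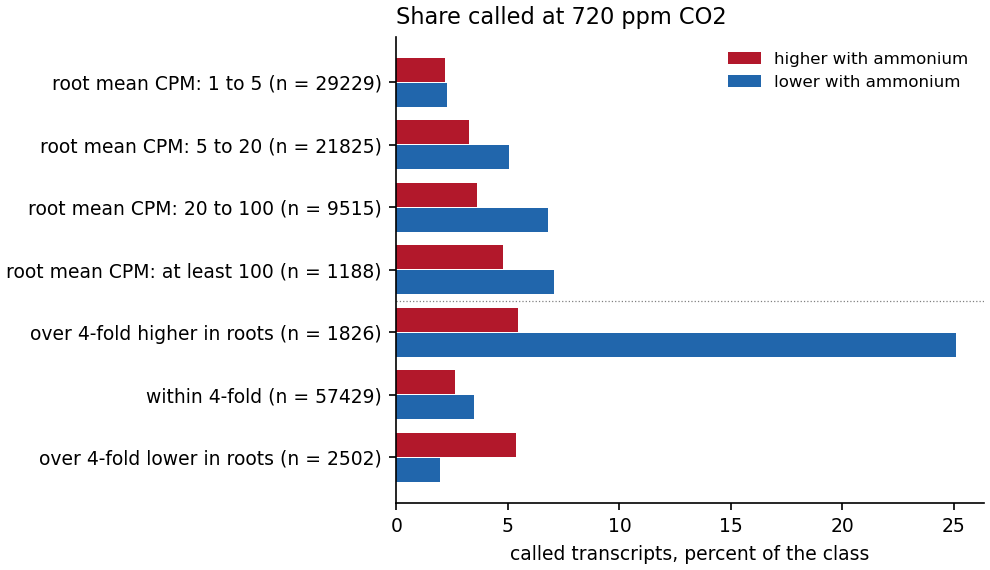
Bars give the percent of each class of described transcripts called higher (red) or lower (blue) with ammonium at 720 ppm CO2, for 4 classes of root level above the dotted line and 3 classes of root against shoot level below it. The bar for lower transcripts in the root-leaning class, 25.1%, exceeds all others, and in the class lower in roots the higher calls outnumber the lower ones, an order that turned when the class was set on ammonium libraries at 400 ppm.

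How the class was defined bears on these counts. It rests on the mean of all root libraries, so a transcript can enter through the nitrogen group where it is high, and nitrogen effects are shared between CO2 levels. A pair of further definitions was added after seeing the data. With the lean taken from the 6 root libraries at 400 ppm, 102 of 1666 root-leaning transcripts were higher and 437 lower with ammonium, 32.4%, which leaves that route open to transcripts high with nitrate. With the lean taken from the ammonium root libraries at 400 ppm alone, a choice that favours transcripts high with ammonium, 141 of 1550 were higher and 256 lower, 25.6%. Under that definition the class over 4-fold lower in roots had 77 higher and 121 lower among 2422, so the excess of higher calls there turned into an excess of lower ones.

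The summed level of the root-leaning class depended on the definition. With the lean from all 12 root libraries it was 3.70, 4.14 and 4.41% of the counts in ammonium replicates 1, 2 and 3 and 4.77, 4.93 and 5.00% in the nitrate replicates, without overlap (exact permutation test of 3 against 3 libraries, two-sided p = 0.1, the smallest it can give). The compared libraries took part in setting this class, so the separation can follow from that choice. With the lean from the 6 root libraries at 400 ppm the sum was 3.61, 4.00 and 4.21% with ammonium. With nitrate it was 4.64, 4.73 and 4.80%, again without overlap (exact permutation p = 0.1). Transcripts high with nitrate can enter that class too. With the lean from the ammonium libraries at 400 ppm the sum was 3.66, 4.02 and 4.19% with ammonium and 3.99, 4.06 and 4.10% with nitrate, and the groups overlapped (exact permutation p = 0.8). A difference between the groups in this sum is therefore not shown. In bulk samples fewer cells of a type and less RNA per cell cannot be told apart.

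The responses at 720 and 400 ppm, which share no library but share an estimate of spread in the fit, were mostly alike in direction. Of the 1751 transcripts risen at 720 ppm, 1725 were also higher with ammonium at 400 ppm, and 2443 of the 2501 fallen were also lower there. Over all described transcripts 48.2% were higher and 51.8% lower at 400 ppm. Called at both levels were 1078 risen transcripts, 61.6% of the 720 ppm list and 36.8% of the 400 ppm list of 2930. The 1775 fallen ones called at both levels were 71.0 and 44.7% of lists of 2501 and 3973. The 2853 transcripts called in the same direction at both levels were 1856 without nitrate replicate 2 at 720 ppm and 4213 with DESeq2. At 400 ppm 7.98% of all root transcripts tested were called, 2.5% higher and 5.47% lower. Ammonium replicate 1 at 400 ppm had 59.9% even numbers among counts above 20, where the other root libraries there had 54.4 to 56.4%. It correlated with ammonium replicates 2 and 3 there at 0.963 and 0.962, while those correlated at 0.979. Without that library 2473 transcripts were called in the same direction at both levels. The fold changes correlated across the 61757 transcripts with r = 0.760, a description over points from the same 12 libraries. Over the 4252 called at 720 ppm the median log2 fold change of the risen was 0.74 at 720 ppm and 0.63 at 400 ppm, and that of the fallen -0.78 and -0.69. Since the lists were chosen at 720 ppm, smaller values at 400 ppm would also follow from that choice. The reverse held for the lists called at 400 ppm, with medians of 0.79 at 400 ppm and 0.49 at 720 ppm for the risen and -0.69 and -0.46 for the fallen.

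Nearly all of the strongest falls were also called at 400 ppm. Of the 80 transcripts over 8-fold lower with ammonium at 720 ppm, 79 were called lower at 400 ppm too, with medians of -4.91 at 720 ppm and -5.59 at 400 ppm on the log2 scale. Their level with nitrate ranged from 1.47 to 353.8 CPM, with a median of 29.7 CPM, and 44 of them reached 20 CPM. With ammonium their median was 1.14 CPM. Together they held 0.458, 0.437 and 0.464% of the counts in nitrate replicates 1, 2 and 3 and 0.0200, 0.0203 and 0.0206% in the ammonium replicates, values that describe the choice. At 400 ppm, whose levels did not set the fold changes chosen on, the sums were 0.518, 0.476 and 0.472% with nitrate and 0.0198, 0.0219 and 0.0172% with ammonium. Of the 12 transcripts over 8-fold higher with ammonium, 11 were also called at 400 ppm. Their levels with ammonium ran from 2.81 to 30.7 CPM.

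**Figure D4:**
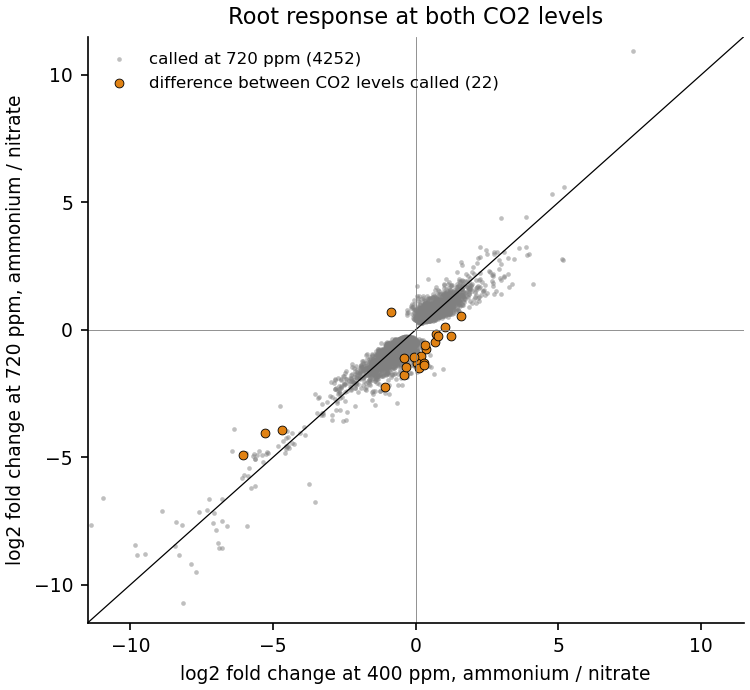
Log2 fold change of ammonium over nitrate at 400 ppm (horizontal) and at 720 ppm (vertical) for the 4252 described transcripts called at 720 ppm (grey), with the line of equal change. Orange points mark the 22 transcripts whose effect differed between the CO2 levels. Most points lie in the quadrants of equal sign, and most orange points lie below the line.

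A test of the difference itself found 22 described transcripts whose nitrogen effect differed between 720 and 400 ppm (edgeR adjusted p under 0.05), against 0.462% of all root transcripts tested, which is 722 of 156123. The 22 are 0.0356% of the described transcripts, and most called differences lay outside the rule. Over all root transcripts tested, 0.386% had the higher effect at 720 ppm and 0.0762% the lower one. Among the described ones the lower effect prevailed, though not without nitrate replicate 3 at 400 ppm. In 18 of the 22 the effect at 720 ppm was the lower one, by 0.69 to 1.68 on the log2 scale. Each of the 18 had a lower ammonium mean and a higher nitrate mean at 720 than at 400 ppm. The median nitrate level at 720 ppm was 1.47 times that at 400 ppm, and the median ammonium level 0.662 times. The 18 were chosen for a lower effect at 720 ppm in these same libraries, so such shifts would also follow from that choice. Of these 18, 10 fell with ammonium at 720 ppm and were not called at 400 ppm, 5 rose at 400 ppm and were not called at 720 ppm, 2 fell and 1 rose at both levels. Of the other 4, 3 fell at both levels, less so at 720 ppm, and 1 rose at 720 ppm and fell at 400 ppm.

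PpCO2_115341 was among the 10. At 720 ppm it was at 5.68, 4.62 and 6.06 CPM in the ammonium replicates and at 20.3, 12.1 and 21.3 CPM in the nitrate replicates, a called fall of 1.76 on the log2 scale (SE 0.188, edgeR adjusted p = 8.05e-05). At 400 ppm it was at 8.74 ± 1.14 and 11.1 ± 0.108 CPM (SD, n = 3), which did not pass (edgeR adjusted p = 0.221). The difference of the effects was -1.36 (SE 0.259, edgeR adjusted p = 0.0342). PpCO2_27717 had the largest such difference among transcripts of at least 5 CPM, -1.48 (SE 0.209, edgeR adjusted p = 0.00332). With ammonium it was at 16.8 ± 1.91 CPM at 400 ppm and 8.64 ± 0.964 CPM at 720 ppm, and with nitrate at 6.92 ± 1.37 and 9.98 ± 1.05 CPM (SD, n = 3). It rose with ammonium at 400 ppm, while at 720 ppm the 3 ammonium libraries, at 7.67, 8.64 and 9.60 CPM, overlapped the nitrate libraries at 9.20, 11.2 and 9.57 CPM.

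Of the 4 differences above 0, 3 belonged to strong falls. PpCO2_178484 was at 7.06, 5.41 and 5.08 CPM under ammonium and at 178.7, 178.9 and 153.7 CPM under nitrate at 720 ppm, and at 3.29 ± 0.25 and 210.2 ± 23.8 CPM at 400 ppm (SD, n = 3). Its log2 fold change was -4.92 at 720 ppm and -6.05 at 400 ppm, a difference of 1.13 (SE 0.172, edgeR adjusted p = 0.00626). PpCO2_14431 was at 2.16, 1.93 and 2.27 CPM under ammonium and at 33.9, 29.1 and 40.1 CPM under nitrate at 720 ppm. Its ammonium level was 1.01 ± 0.236 CPM at 400 ppm and its nitrate level 38.4 ± 2.38 CPM (SD, n = 3), and the difference of the effects was 1.23 (SE 0.218, edgeR adjusted p = 0.0205). The ammonium libraries of both transcripts were higher at 720 ppm than at 400 ppm without overlap. The nitrate libraries of PpCO2_14431 overlapped between the CO2 levels, and those of PpCO2_178484 were lower at 720 ppm.

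The differences between CO2 levels depended on single libraries. Their count was 7 without ammonium replicate 2 and 6 without nitrate replicate 1 at 720 ppm, 14 and 13 without ammonium replicates 1 and 3 at 400 ppm, 9 and 6 without nitrate replicates 2 and 3 at 400 ppm, and 35 without ammonium replicate 1 at 720 ppm. DESeq2 called 176. With limma-voom 0 were called, where 3424 had an unadjusted p under 0.05 and the lowest adjusted p was 0.126. The adjusted p of PpCO2_27717 and PpCO2_178484 reached 0.126 and 0.185 with limma-voom, and that of PpCO2_178484 was 0.0705 without replicate 1 of all 4 root groups. PpCO2_115341 and PpCO2_14431 lost the call in 12 and 8 of 21 alternatives, with adjusted p up to 0.211 and 0.266. The 12 included the fits without any of ammonium replicates 1 and 2 and nitrate replicates 1 and 3 at 720 ppm.

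**Figure D5:**
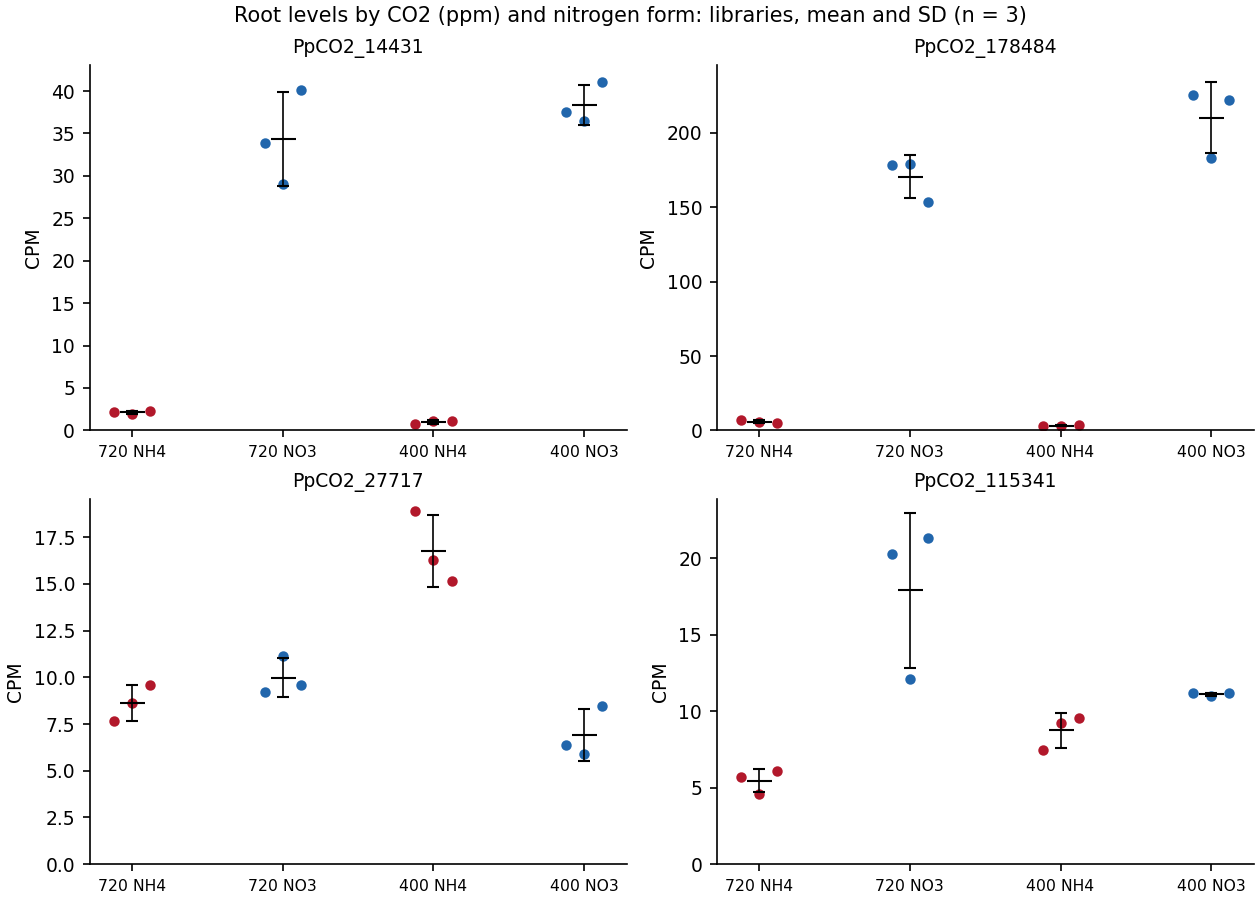
CPM of the 4 transcripts named for the difference between CO2 levels, in each root library (points, red ammonium and blue nitrate), with the mean and SD of 3 libraries in black, by CO2 level in ppm and nitrogen form. The upper 2 transcripts are low with ammonium at both CO2 levels, PpCO2_27717 is highest with ammonium at 400 ppm and PpCO2_115341 has its highest mean with nitrate at 720 ppm.

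Needles and stem were compared with roots in a fit of all 36 libraries, where 413 described transcripts were higher and 725 lower with ammonium in roots at 720 ppm, where 0.912% of all transcripts tested were called, 0.418% higher and 0.493% lower. In the same fit, 43 of the described transcripts were higher and 55 lower with ammonium in needles, and 102 higher and 96 lower in stem (edgeR adjusted p under 0.05). Of all transcripts tested 0.0538% were called in needles, 0.0231% higher and 0.0306% lower, and 0.115% in stem, 0.0575% higher and 0.057% lower. Needles and stem each had 1 library of low complexity (over 65% even numbers among counts above 20) among the 6 at 720 ppm. These were needle ammonium replicate 3 and stem nitrate replicate 1. At 400 ppm, also part of this fit, needle ammonium replicate 2, needle nitrate replicates 1 and 2 and stem ammonium replicates 1 and 2 were over the limit. The part of these libraries in the lower counts was not tested. The median needle and stem effects of the transcripts risen in roots were 0.09 and 0.20 on the log2 scale, and those of the fallen -0.14 and -0.17. Of the 55 fallen needle transcripts 45 were also among the 2501 fallen in the root fit, 81.8% of the needle list and 1.80% of the root list, and of the 96 in stem 81 were, 84.4 and 3.24%. For risen transcripts the overlap was 15 of 43 in needles and 48 of 102 in stem. Same-numbered organs of a group were taken as 1 pool of seedlings, so calls shared between organs do not come from independent samples.

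The root effect itself differed from that of needles for 206 described transcripts and from that of stem for 146. Of all transcripts tested, 0.117% differed between roots and needles (0.0253% higher and 0.0919% lower in roots) and 0.0898% between roots and stem (0.0156 and 0.0742%). In 170 of the 206 and 132 of the 146 the root effect was the lower one. Of the 170, 157 were among the fallen root transcripts, with median effects of -1.35 in roots and -0.07 in needles on the log2 scale. Of the 170, 12 were called higher with ammonium in needles, of which 3 had fallen in roots and 9 had not. Against stem, 120 of the 132 had fallen in roots, with medians of -1.41 in roots and 0.02 in stem, and the 9 called higher in stem had not fallen in roots. The medians against needles and stem describe lists chosen on these same libraries, for a lower root effect and a called fall in roots. They do not measure the shoot response. In all 36 of the 206 and all 14 of the 146 where the root effect was the higher one, the transcript was called risen in roots. Without replicates 1, 2 and 3 of every group in turn, the counts were 86, 29 and 92 against needles and 37, 33 and 91 against stem. Without the libraries of low complexity at both CO2 levels, all from needles and stem, they were 435 and 230. That fit kept root ammonium replicate 1, whose 64.4% even counts were just under the limit of 65%. The split of the counts moved as well. The number with the higher effect in roots was, against needles, 63 with DESeq2's size factors, 49 with the pool as a block and 47 without the libraries of low complexity, where the main value was 36. Against stem it was 36, 27 and 38, where the main value was 14. With DESeq2's size factors 217 and 130 had the lower effect in roots.

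At 720 ppm 43 described transcripts were called lower with ammonium in all 3 organs, 0.0696% of the described ones, and 44 of the 156123 root transcripts tested were, 0.0282%. The 43 lay in 17 blocks of adjacent identifier numbers, and the organs were taken as coming from shared pools of seedlings. As chosen for being called in each organ, they had median log2 fold changes of -4.86 in roots, -3.75 in needles and -4.10 in stem, and all 43 were also called lower in roots at 400 ppm. In all 3 organs 5 transcripts rose (0.00810% of the described and 0.00320% of those tested), in 4 blocks, with medians of 1.29, 1.5 and 1.00. Of the 80 root transcripts over 8-fold lower, 37 were among the 43.

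Calls came in blocks of neighbouring identifier numbers. Of the risen transcripts 44.7%, and of the fallen 53.1%, had a described transcript with an adjacent number called in the same direction, so the 1751 and 2501 calls formed 1253 and 1630 blocks. A described transcript with an adjacent number existed for 1553 of the risen and 2224 of the fallen. Of all described transcripts 2.84% were called higher and 4.05% lower. Opposite calls on adjacent numbers were fewer than calls in the same direction, with 34 risen and 33 fallen transcripts. The shares expected from the call rates were not computed. The longest block of risen transcripts had 16 adjacent numbers, with log2 fold changes of 0.73 to 5.60 and root means of 1.05 to 18.1 CPM, and all 16 were also called at 400 ppm. The rise of 5.60 was that of PpCO2_22062. Within 10 numbers of it 14 of the 19 other described transcripts rose, with a median log2 fold change of 1.21 and a largest of 5.31. The longest fallen block had 14, with log2 fold changes of -2.89 to -1.03, all called at 400 ppm. Within 10 numbers of PpCO2_28807, 9 of the 18 other described transcripts fell, with log2 fold changes of -9.18 to -3.27, and within 10 numbers of PpCO2_178484 9 of 17 did, at -6.20 to -4.86. Around PpCO2_14431 5 of 12 fell while 3 were called in the opposite direction. Neighbouring numbers may be variants of the same gene whose reads were shared between them. The table does not say, so the calls count identifiers and not genes.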

How the data were processed

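The raw counts per transcript identifier were used as deposited by the authors. Their aligner, counter and assembly are not given in the sources used here, and bcl2fastq is named per the submitters' processing notes. The treatment text in the labels describes another root experiment, so groups were taken from titles and the series design. Members and classes were chosen with earlier results of these data known. Named transcripts are, per direction, the largest fold change and the highest level among changes of at least 2-fold (called, no overlap, at least 5 CPM), and for the CO2 difference the 2 largest per direction of at least 5 CPM over root libraries.

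The 12 root libraries were fitted with R 4.3.3 and edgeR 4.0.16 (filterByExpr with a minimum count of 10, TMM, robust quasi-likelihood F-test, 8 residual degrees of freedom), and organ differences over all 36 libraries. All 61757 described transcripts passed the filter. CPM values are counts over the column total, and fold changes use TMM. DESeq2 1.42.0, limma 3.58.1 and the other alternatives were run as well. The functions were tested on simulated data. Needles, stem and roots were isolated from the pools, so same-numbered organs of a group were taken as 1 pool. Root deviations from the group mean correlated with those of needles and stem of the same pool at 0.0954 to 0.470, and the pool was tried as a block. Library sizes above limit counting precision.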

Additional observations from a re-analysis of the deposited data

Results flagged for a closer look

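Effects that differed between groups by a test of the difference itself were these. Between 720 and 400 ppm CO2 the root nitrogen effect differed for 22 described transcripts. Of the named ones, the difference in log2 fold change was 1.23 for PpCO2_14431, 1.13 for PpCO2_178484, -1.48 for PpCO2_27717 and -1.36 for PpCO2_115341. Between organs at 720 ppm the root effect differed from that of needles for 206 and from that of stem for 146 described transcripts. Among the named ones the root effect minus the needle effect was 4.57 for PpCO2_22062 and -3.19 for PpCO2_167522. Dixon's test of single values was not applied to groups of 3 libraries.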

How the results depend on the processing

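No named transcript changed direction under the alternatives, while the split of calls in the class lower in roots did, at 77 higher and 121 lower with the class set on ammonium libraries at 400 ppm. Of the 172 recomputed values of named transcripts 143 kept their side of the threshold and 29 lost the call. The count of 4252 described transcripts called at 720 ppm was 1280 with a log2 fold change over 1 required, 1886 at an adjusted p under 0.01, 6505 with DESeq2 and, in an alternative added after seeing the data, 1138 in a fit of all 36 libraries. It ranged from 2420 to 4616 without each of the 12 root libraries in turn. The count of 22 differences between CO2 levels was 3 at an adjusted p under 0.01, 176 with DESeq2 and 0 with limma-voom (3424 at an unadjusted p under 0.05). It ranged from 6 to 35 without each library, with 4 to 15 of the 22 called again. Without replicate 1 of all 4 root groups, also added after seeing the data, the counts were 3867 and 28, with 2740 and 5 of the original calls among them. The 206 and 146 differences from needles and stem were 29 to 92 and 33 to 91 without replicate 1, 2 or 3 of every group, and 435 and 230 without the libraries of low complexity. The share lower among the 4252 was 58.8% and 50.5 to 69.0% over the alternatives.

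The labels do not say that the numbers 1 to 3 pair ammonium and nitrate pools. Deviations of same-numbered libraries at 720 ppm correlated at 0.274, 0.0287 and 0.113, not all over 0.1, so the numbers were not taken as pairs. Along the second principal component of the root libraries (16.0% of the variance), however, replicate 1 was the highest and replicate 3 the lowest in each of the 4 root groups. With the replicate number as a block the counts were 4773 at 720 ppm, with 3963 of the 4252, and 31 for the difference between CO2 levels, with 15 of the 22, and with the pool of seedlings as a block 250 and 162 for the differences from needles and stem. Not every library correlated best with its own number. Fits without a library assume that the remaining ones vary like the other groups. The cause of the shifts was not tested.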
